A study of Mus musculus with 88 samples.

Results

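NFSa is a fibrosarcoma that arose spontaneously in a C3H/He mouse and was grown by transplantation in the hind legs of C3H mice. The samples described here were 2 arrays of NFSa tumours taken on day 3 after a single dose of 30 Gy of carbon ions and 2 arrays of NFSa tumours of the same arm that were not irradiated, 4 of the 88 arrays of the series. They were chosen by their titles, which give tumour, beam, dose and time, and no measured value entered the choice. The whole tumour was profiled, so RNA of tumour cells, of immune cells and of the muscle and fat of the leg was measured together, and fewer cells of a type and less RNA per cell cannot be told apart. For comparison stood NFSa at 6 h and day 1 after the same dose. NFSa after 30 or 50 Gy of gamma rays was read on day 3, and for some genes also at 6 h and day 1. The untreated tumours of that arm stood beside it. In NR-S1 and SCCVII, labelled squamous cell carcinomas, and in #8520, day 3 and untreated tumours of the carbon arm were used. The tumour #8520 is another fibrosarcoma, which arose after irradiation. Each group had 2 arrays, and the labels do not say whether these were separate animals, so the spread behind each p-value is that between arrays and may be technical. Transplanted tumours of 1 line are a model of that line alone.

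Carbon ions are heavy charged particles that deposit their energy densely along a track and leave clustered breaks in DNA. Cells with such damage stop dividing through p53 and checkpoint kinases, and DNA that escapes from damaged nuclei can be sensed in the cytoplasm and start the type I interferon response. Interferon gamma, made by T cells and natural killer (NK) cells, acts on the same promoters in part and adds its own targets, among them guanylate-binding proteins, the chemokines CXCL9 and CXCL11, and the machinery that presents antigen. Sterol synthesis enzymes form a single pathway under a shared transcription factor, SREBP2, which binds sterol regulatory elements.

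Median intensities of the 22 NFSa arrays ran from 1.05 to 1.07, and each array lacked a value for 203 to 628 of its 36227 probes. Over probes, the correlation between the 2 arrays of a group was 0.972 to 0.992, with 0.990 for day 3 after carbon ions and 0.991 for the untreated tumours of the carbon arm. The fibroblast marker Vim was far above the array median in both groups, whereas the keratin Krt14 lay below it on day 3 and just above it in untreated tumours. Vim, the filament protein of mesenchymal cells, stood at 220 and 167 on day 3, against 212 and 202 untreated, and Krt14, a keratin of basal keratinocytes, at 0.335 and 0.363 on day 3, against 1.20 and 1.25 untreated. Sums over the 22 keratinocyte and epithelial markers with a probe, of which 19 were tested, were 15.2 and 15.2 on day 3, against 17.2 and 17.2 untreated.

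The untreated NFSa tumours of the carbon arm and those of the gamma arm stood apart from each other before any irradiation. With limma's test at an adjusted p under 0.05, 3903 of 13462 genes were higher in the carbon arm (29%) and 2721 lower (20.2%). Gbp8, a guanylate-binding protein induced by interferon gamma, read 0.211 and 0.180 in untreated tumours of the carbon arm, against 47.6 and 44.8 in those of the gamma arm. All 13 guanylate-binding and immunity-related GTPases, all 11 interferon gamma chemokines and linked genes, 16 of 17 genes of cytotoxic cells and 11 of 15 T cell genes were lower in the carbon arm's untreated tumours. Of 23 skeletal muscle genes tested 17 were lower there as well and 3 higher. Against that direction, Myl2 and Tnnc1, of slow muscle, were higher there by 3.18 and 3.12 on the log2 scale. Mcm7, a helicase subunit of replication, was higher by 2.75. The other largest differences were Eef2 (2.74) and Cmip (2.52) upward and, downward, Cxcl9 (-5.11), Calhm6 (-4.95), Saa3 (-4.74) and Acod1 (-4.46). Which of these untreated pairs is the usual state of the tumour was not tested, so the gene groups below are given against their own arm's untreated tumours and then against those of the gamma arm.

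On day 3 after carbon ions 2598 of 13461 genes were higher than in untreated tumours (19.3%) and 3789 lower (28.1%). Of these, 664 had risen and 484 had fallen at least 2-fold, and 152 and 48 at least 4-fold. Among the genes with the largest rises were interferon gamma targets, genes of cytotoxic lymphocytes and apolipoproteins, and among those with the largest falls were genes of sterol and fatty acid synthesis, smooth muscle actins and cell division. The median change over all genes tested was -0.08 on the log2 scale. Of the 13461 genes, passing or not, 4106 had both day 3 arrays above both untreated arrays and 6115 had both below. Groups that do not overlap were thus common and do not set a gene apart. Set against the untreated tumours of the gamma arm, the counts were 3698 higher and 3802 lower of 13464 genes. The list counts below are to be read beside the shares of all genes for the same baseline. Against the carbon arm's own untreated tumours, the counts of NRF2 targets and keratinocyte genes lay near or below those shares. Against the gamma arm's untreated tumours, the counts of collagens and of T cell genes did so.

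**Figure D1:**
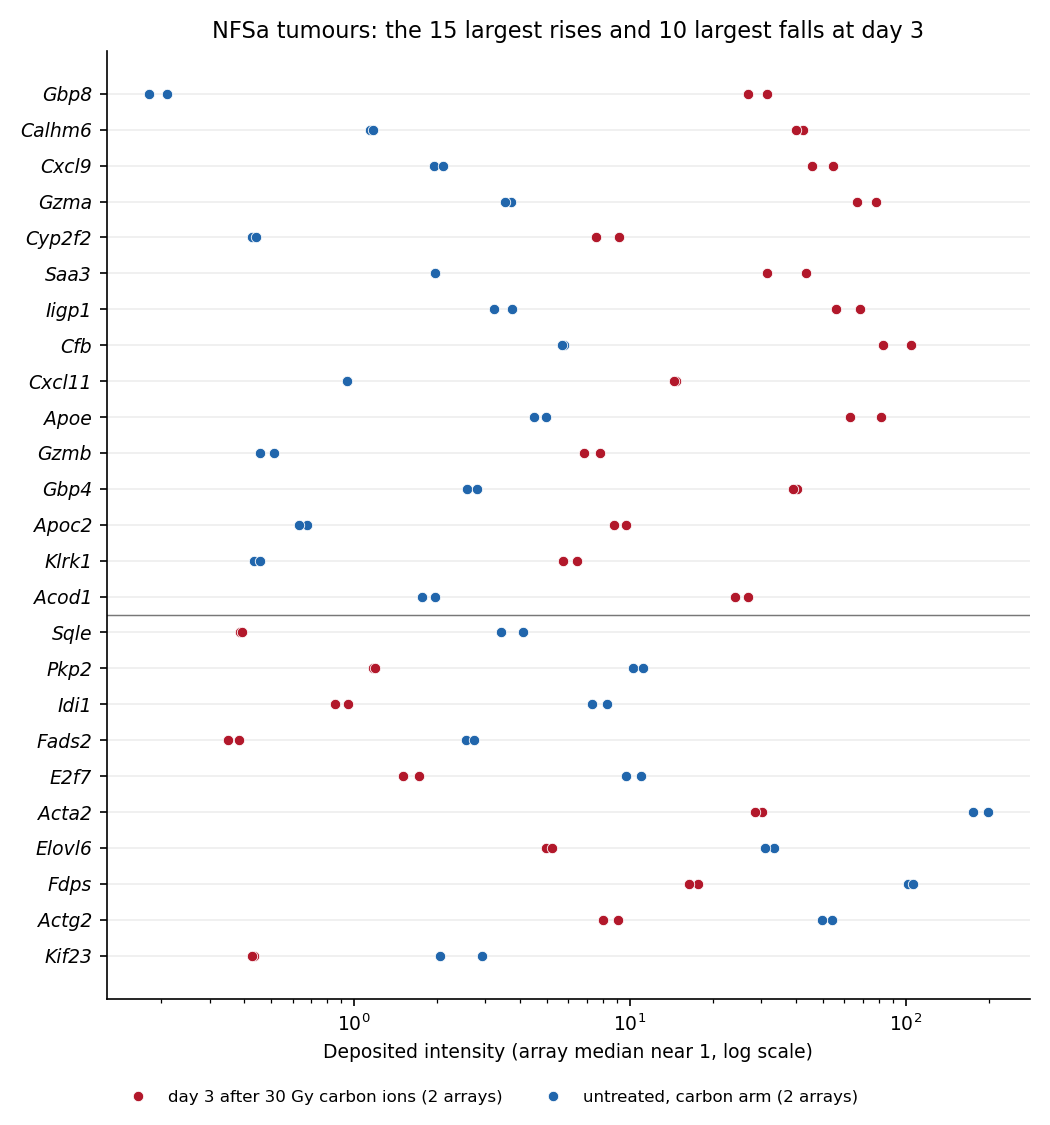
Deposited intensity on a log scale (horizontal) of the 15 genes with the largest rises, above the grey line, and the 10 with the largest falls, below it, with 1 point per array. In every row the 2 day 3 arrays (red) lie clear of the 2 untreated arrays of the carbon arm (blue), as the choice of genes required. The rows run from Gbp8 at 31.5 and 26.9, against 0.211 and 0.180, to Kif23 at 0.436 and 0.427, against 2.06 and 2.92.

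Promoters of 3 interferon genes are shown, those with the largest changes among the listed genes whose promoter is in the table and holds a short motif known from this response. Gbp8, Iigp1, Cxcl11, Gbp4 and Mx1 were not searched. The motif GAAANNGAA, the core of the interferon-stimulated response element, was searched on both strands of RefSeq promoters of build GRCm38.p6, each running from 250 bases before to 50 after a gene's start. Its letters can overlap with the motif TTTGAA searched below. It occurred in 8.56% of all 32851 promoters in the table and in 8.79% of the 10773 tested genes that have one. It occurred in 13 of 22 antiviral interferon genes, 7 of 8 guanylate-binding and immunity-related GTPases and 5 of 8 interferon gamma chemokines and linked genes with a promoter in the table. Calhm6 lies on the minus strand (window chr10:34127923-34128222), Cxcl9 on the minus strand (chr5:92328030-92328329) and Cd274 on the plus strand (chr19:29367188-29367487). Capitals mark the motif, which in Cd274 lies on the other strand.
Calhm6: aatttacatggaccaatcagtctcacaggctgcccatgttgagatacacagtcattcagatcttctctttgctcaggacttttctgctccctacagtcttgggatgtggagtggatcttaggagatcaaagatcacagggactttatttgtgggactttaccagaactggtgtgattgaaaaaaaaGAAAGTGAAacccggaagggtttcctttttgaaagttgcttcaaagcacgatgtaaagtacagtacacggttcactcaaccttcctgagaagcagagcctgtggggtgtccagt
Cxcl9: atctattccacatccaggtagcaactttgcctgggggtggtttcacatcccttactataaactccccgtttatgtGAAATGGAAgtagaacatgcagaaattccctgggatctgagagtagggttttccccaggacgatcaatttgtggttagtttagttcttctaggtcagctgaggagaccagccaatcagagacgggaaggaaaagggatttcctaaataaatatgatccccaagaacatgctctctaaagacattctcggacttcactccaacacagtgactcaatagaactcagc
Cd274: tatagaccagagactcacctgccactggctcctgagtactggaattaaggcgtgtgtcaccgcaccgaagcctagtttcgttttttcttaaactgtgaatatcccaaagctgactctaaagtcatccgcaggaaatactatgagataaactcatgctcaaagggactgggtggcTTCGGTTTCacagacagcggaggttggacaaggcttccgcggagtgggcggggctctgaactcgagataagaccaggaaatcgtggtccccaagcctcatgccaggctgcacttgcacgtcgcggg
The match is a description of letters in these windows and not a measured binding site.

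Genes of the interferon gamma response rose together, and Gbp8 rose most of all genes named here. Gbp8 read 31.5 and 26.9 on day 3, against 0.211 and 0.180 untreated. Both day 3 arrays lay far above both untreated arrays, a 149-fold difference (log2 7.22, SE 0.12, adjusted p = 1.82e-45). Calhm6, a channel protein of stimulated macrophages and dendritic cells whose promoter is shown above, read 42.6 and 40.2 on day 3, against 1.14 and 1.17 untreated (35.8-fold, adjusted p = 2.93e-34). Cxcl9, a chemokine that draws in T cells through the receptor CXCR3, read 54.6 and 45.8 on day 3, against 1.95 and 2.11 untreated (24.7-fold, adjusted p = 2.81e-39). Cxcl11, a ligand of the same receptor, read 14.7 and 14.5 on day 3, against 0.949 and 0.945 untreated. In each of these genes the groups did not overlap, as in 6346 of the 6387 genes that passed on day 3.

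Of the 13 guanylate-binding and immunity-related GTPases tested, which attack the vacuoles of intracellular microbes, 13 rose, by 1.09 to 7.22 on the log2 scale (median 2.87). Iigp1 rose by 4.16, Gbp4 by 3.89 and Igtp by 3.25. The summed intensity of the 14 GTPases with a probe was 631 and 541 on day 3, against 105 and 103 untreated. Of 11 interferon gamma chemokines and linked genes 10 rose (median 2.54), with Cd274, the checkpoint ligand PD-L1, at 47.4 and 40.4 on day 3, against 3.12 and 3.46 untreated. With the untreated tumours of the gamma arm as the baseline, most of these rises were lost or turned round. There Gbp8 was lower on day 3 by 0.67 (adjusted p = 3.88e-06), Cxcl9 by 0.48, Gbp4 by 0.48 and Cd274 by 0.33, Calhm6 and Igtp did not pass, and Iigp1 stayed higher by 0.71 (adjusted p = 2.45e-06). Of the GTPases 7 were higher and 2 lower (median 0.34), and of the interferon gamma chemokines and linked genes 2 were higher and 8 lower (median -0.33).

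Antiviral genes of the interferon response rose against either set of untreated tumours. Mx1, a GTPase that blocks influenza viruses, read 17.8 and 17.8 on day 3, against 2.16 and 2.19 in untreated tumours of the carbon arm. It was higher by 3.03 (SE 0.13, adjusted p = 4.58e-26), and by 1.29 (adjusted p = 9.15e-12) over the gamma arm's untreated tumours, which read 7.19 and 7.40. Of 27 antiviral genes tested 25 rose and 0 fell, with a median of 2.03 that was 0.91 against the gamma arm, where again 25 rose and 0 fell. Phf11a rose by 2.94, Usp18, which removes ISG15 from proteins, by 2.61 and Ifit1, which binds viral RNA ends, by 2.53. Of 21 nucleic acid sensors and interferon regulators 15 rose and 0 fell (median 1.11), and 16 rose against the gamma arm (median 1.04). Irf7, the transcription factor that amplifies type I interferon, read 218 and 177 on day 3, against 37.9 and 36.3 untreated. Zbp1, a sensor of Z-form nucleic acids, rose by 2.46, Ifi205 by 2.40 and Stat2, a transcription factor of type I interferon signalling, by 1.79. Of the sensors named, Zbp1 did not pass against the gamma arm (log2 0.06). All 4 Schlafen genes tested, a family of interferon-induced growth regulators, rose against both (medians 2.35 and 1.24), with Slfn1 at 28.0 and 25.8 on day 3, against 2.66 and 2.78 untreated, and Slfn4 higher by 2.85. Slfn3 rose least (0.45) and lost its call without untreated replicate 1 (adjusted p = 0.198).

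Genes for presenting antigen rose as well. Of 13 genes of MHC class I processing 12 rose (median 1.23), led by Tap1, the peptide transporter, at 10.7 and 10.7 on day 3, against 2.55 and 2.47 untreated, and by Psmb9, a subunit of the immunoproteasome, by 2.08. With the gamma arm's untreated tumours as the baseline 5 rose and 0 fell (median 0.19), Tap1 by 0.64, and Psmb9 was lower by 0.07, which did not pass. Of 18 genes of MHC class II and dendritic cells 10 rose and 3 fell (median 0.42). H2-DMa, which loads peptides on class II, rose by 1.78 and H2-Ab1 by 1.39, while Cd209a, a lectin of dendritic cells, fell by 1.11 and Clec9a, a marker of cross-presenting dendritic cells, by 0.81. From the gamma arm's baseline 2 rose and 11 fell (median -0.56).

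Transcripts of cytotoxic lymphocytes rose strongly. Gzma, a granzyme of killer cells, read 78.0 and 66.8 on day 3, against 3.70 and 3.54 untreated (19.9-fold, log2 4.32, SE 0.14, adjusted p = 7.82e-32). Gzmb read 6.85 and 7.78 on day 3, against 0.515 and 0.457 untreated, and Klrk1, the activating receptor NKG2D, 5.73 and 6.42, against 0.433 and 0.457 untreated. The day 3 and untreated arrays did not overlap in any of the 3. Prf1, perforin, rose by 3.52. Of 17 genes of cytotoxic and NK cells tested 17 rose (median 2.68). The summed intensity of the 20 genes of this list with a probe was 205 and 183 on day 3, against 32.9 and 33.6 untreated. From the untreated tumours of the gamma arm 14 rose and 0 fell (median 0.74), with Gzma at 0.39 (adjusted p = 0.0156), Gzmb at 0.74, Prf1 at 0.76, and Klrk1 at 0.30, which did not pass.

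Of 15 T cell genes 13 rose and 0 fell (median 1.38). Cd3g, a chain of the T cell receptor complex, read 2.77 and 2.72 on day 3, against 0.502 and 0.475 untreated, and Zap70, the kinase that carries its signal, 1.76 and 1.96, against 0.321 and 0.298 untreated. Ccl5 rose by 2.48 and Icos, a costimulator, by 1.65. Cd8b1, of cytotoxic T cells, rose by 1.38 (adjusted p = 1.82e-09) and Cd4, of helper T cells, by 0.27 (adjusted p = 0.0316). Over the gamma arm's untreated tumours 3 rose and 3 fell (median -0.04), Zap70 was higher by 0.67, Ccl5 lower by 0.29, and Cd3g and Icos did not pass. Of 10 checkpoint genes 9 rose (median 0.98), with Tnfrsf18 (GITR) at 1.97, Cd86 at 1.90, Pdcd1 (PD-1) at 1.5 and Pdcd1lg2 (PD-L2) at 1.05. With the gamma arm's baseline 7 rose and 2 fell (median 0.44), and Pdcd1 was lower by 0.65. Of 9 B cell genes 5 rose and 1 fell (median 0.28). Jchain, the joining chain of secreted antibodies, rose by 2.37 and Ighm by 1.59, whereas Cd79a fell by 0.64 while Cd79b, its partner in the B cell receptor, rose by 0.97. Pax5, the factor that defines B cells, read 0.832 and 0.710 on day 3, against 0.802 and 0.768 untreated, and did not pass.

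Macrophage genes rose, with those for receptors of antibodies and glucans in front. Fcgr4, an activating Fc receptor, read 38.6 and 33.0 on day 3, against 3.23 and 3.36 untreated (log2 3.44, SE 0.12, adjusted p = 5.23e-30). Of 25 macrophage and monocyte genes 20 rose and 1 fell (median 0.97), and against the gamma arm 22 rose and 2 fell (median 0.78). The summed intensity of the 26 macrophage and monocyte genes with a probe was 2197 and 1786 on day 3, against 1163 and 1165 untreated. Clec7a, the glucan receptor dectin-1, rose by 2.44, Ms4a4c by 2.28 and Aif1 by 2.0. Adgre1, the antigen F4/80, rose by 1.42, whereas Lyz2, lysozyme, changed by 0.15 and did not pass, and Cd14, the co-receptor for lipopolysaccharide, fell by 0.68. Over untreated tumours of the gamma arm Fcgr4 was higher by 0.16, which did not pass, and Clec7a by 1.03.

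Apolipoprotein genes rose, Apoe most of all. Apoe, which carries lipid out of macrophages, read 4.96 and 4.49 untreated, 4.49 and 5.19 at 6 h, 10.3 and 9.27 on day 1, and 81.5 and 63.0 on day 3. The day 3 arrays lay above all other arrays of NFSa, a 15.2-fold difference from untreated tumours (adjusted p = 2.74e-26). Apoc2, an activator of lipoprotein lipase, rose by 3.81, Apod by 3.75 and Apoc1 by 2.26, and the cholesterol exporters Abcg1 and Abca1 by 2.12 and 1.45. Of 17 genes on the list of lipid-laden macrophages and apolipoproteins 12 rose and 1 fell (median 0.59). The 4 apolipoproteins were also higher than in the gamma arm's untreated tumours, by 2.97 for Apoe, 3.42 for Apoc2, 2.51 for Apod and 1.96 for Apoc1, where 12 genes of the list rose and 4 fell. Of 10 complement genes outside C1q 8 rose and 0 fell against either set of untreated tumours (medians 1.35 and 0.82). Cfb, a protease of the alternative pathway, read 105 and 82.5 on day 3, against 5.78 and 5.66 untreated. C1ra rose by 2.22, Cd55, which dissolves convertases, by 1.71 and Serping1, the C1 inhibitor, by 1.56.

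Neutrophil genes were raised on day 3, when 7 of 12 were lower and 1 higher than on day 1. S100a9, a calcium-binding protein that fills neutrophils, read 5.55 and 4.68 untreated, 129 and 117 at 6 h, 103 and 108 on day 1, and 51.7 and 43.2 on day 3. Every irradiated array of the carbon arm lay above the untreated ones. Of 12 neutrophil genes 9 rose and 1 fell on day 3 (median 1.33), with S100a8 at 3.06, Retnlg at 2.99 and Mmp8, neutrophil collagenase, at 1.81. Ngp and Ltf, of granules made in bone marrow, did not pass, at -0.06 and -0.29. Of 6 CXC chemokines for neutrophils 4 rose, among them Cxcl5 (2.80), Cxcl1 (1.95) and Cxcl3 (1.58), and Ppbp, of platelets, fell by 1.29. Saa3, an acute phase protein, read 1.97 and 1.96 untreated, 20.7 and 19.3 at 6 h, 38.4 and 34.3 on day 1, and 43.4 and 31.4 on day 3, so day 3 and day 1 overlapped. Acod1, the enzyme that makes itaconate in macrophages, read 1.97 and 1.76 untreated, 10.97 and 10.1 at 6 h, 1.73 and 1.98 on day 1, and 26.8 and 24.1 on day 3. Both were lower than in the gamma arm's untreated tumours, Saa3 by 0.50 and Acod1 by 0.69, and 4 neutrophil genes rose and 1 fell (median 0.15).

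Of 17 inflammatory cytokines and acute phase genes 9 rose and 1 fell (median 0.60), with Ptx3 at 2.20, Il1b at 2.11 and Csf2, the cytokine GM-CSF, at 1.71. Of the same 17 genes 9 were higher and 1 lower on day 3 than on day 1. Ptx3 and Il1b were lower against the gamma arm, by 0.35 and 0.13, the smaller of which did not pass. Of 13 CC chemokines 9 rose and 1 fell (median 0.45). Ccl11, eotaxin, read 99.6 and 83.5 on day 3, against 7.88 and 8.79 untreated (log2 3.45, adjusted p = 5.71e-21), and it was higher by 2.58 against the gamma arm. Ccl8 read 239 and 188 on day 3, against 29.0 and 30.0 untreated, and the difference from the gamma arm was 0.33 (adjusted p = 0.013). Ccl3 rose by 2.09 and Ccl19 by 1.51, and Ccl3 was lower by 0.38 against the gamma arm.

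**Figure D2:**
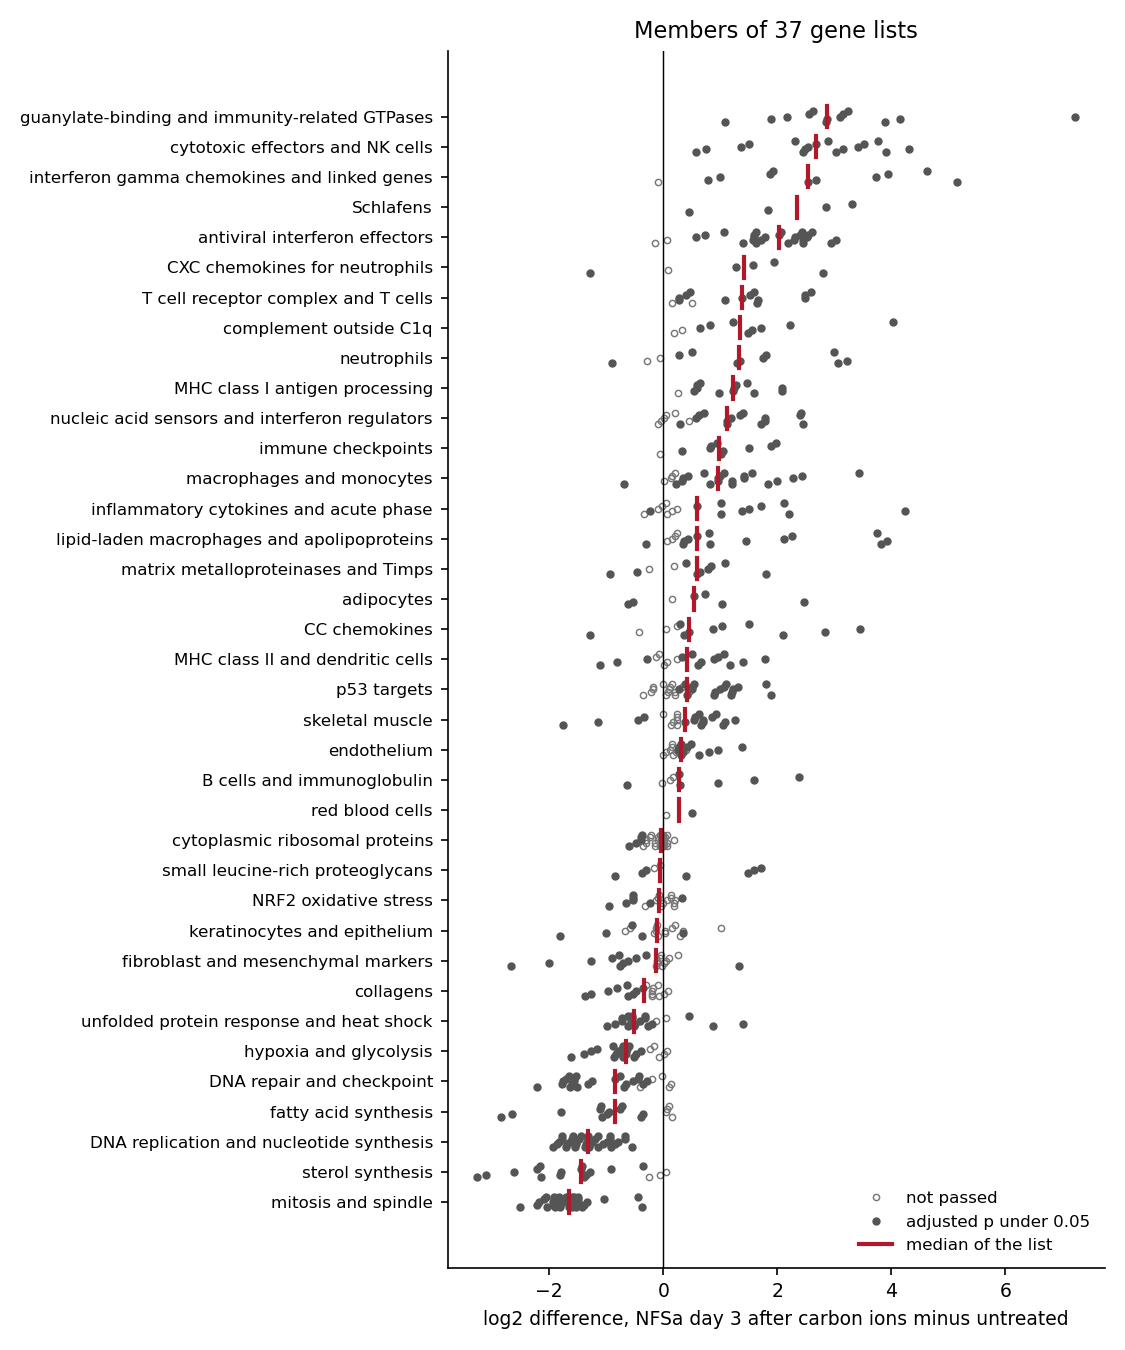
Each point is a gene of 1 of 37 lists, placed by its log2 difference on day 3 after carbon ions minus untreated (horizontal), filled where it passed at an adjusted p under 0.05, with a red bar at the list's median. The GTPase list stands highest with a median of 2.87 and the mitosis list lowest with -1.66, against a median of -0.08 over all genes tested.

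Every gene tested of the mitosis and replication lists fell. Kif23, a kinesin of cytokinesis, is shown with its promoter as the mitosis gene with the largest fall whose promoter holds the motif TTTGAA. This motif is the cell cycle homology region (CHR), through which cell cycle genes are silenced in resting cells. In Kif23 it lies just after the start. TTTGAA was searched on both strands and occurred in 17.9% of all promoters, in 15.4% of tested genes with a promoter, and in 24 of 35 mitosis genes with a promoter in the table. The Kif23 window is chr9:61946750-61947049 on the minus strand of GRCm38.p6, from RefSeq, with the motif in capitals.
Kif23: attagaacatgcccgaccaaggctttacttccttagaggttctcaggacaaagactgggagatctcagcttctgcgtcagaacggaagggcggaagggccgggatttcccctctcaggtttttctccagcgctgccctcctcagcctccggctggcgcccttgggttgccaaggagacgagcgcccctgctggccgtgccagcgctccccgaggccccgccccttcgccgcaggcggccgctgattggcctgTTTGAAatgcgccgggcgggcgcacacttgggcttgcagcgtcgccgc
Kif23 read 0.436 and 0.427 on day 3, against 2.06 and 2.92 untreated, and the groups did not overlap (log2 -2.51, SE 0.16, adjusted p = 5.17e-20). All 41 mitosis and spindle genes tested fell, 39 of them at least 2-fold (median -1.66, range -2.51 to -0.37). Plk1, a kinase of mitotic entry and the spindle, read 0.716 and 0.632 on day 3, against 2.71 and 2.78 untreated. Cdc25c, which activates CDK1, fell by 2.22, Aspm, of the spindle poles, by 2.19 and Cdc20, which starts anaphase, by 2.09. All 36 genes of DNA replication and nucleotide synthesis fell (median -1.33), with Tk1, thymidine kinase, at 6.64 and 6.98 on day 3, against 26.5 and 25.8 untreated, and Uhrf1, Orc1 and Chaf1b at -1.87, -1.83 and -1.78. E2f7, a repressor among the E2F factors, read 1.73 and 1.51 on day 3, against 9.73 and 10.97 untreated. Of 27 repair and checkpoint genes 22 fell and 0 rose (median -0.85), with the helicase Pif1 at -2.21, Rad54l, of homologous recombination, at -1.78, Ung, uracil glycosylase, at -1.76 and Fancb at -1.70.

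These falls were smaller when set against the gamma arm's untreated tumours. Of the mitosis genes 38 fell and 1 rose there (median -1.0), of the replication genes 31 fell and 2 rose (median -0.81), and of the repair genes 15 fell and 4 rose (median -0.31). Kif23 fell by 0.48 (adjusted p = 0.00709), Plk1 by 0.89 and E2f7 by 2.10.

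Sterol synthesis fell along the pathway. Sqle, squalene epoxidase, read 0.388 and 0.393 on day 3, against 3.42 and 4.10 untreated, which is 0.104 times the untreated level (log2 -3.26, SE 0.11, adjusted p = 2.27e-30). Idi1, which isomerises isopentenyl diphosphate, read 0.950 and 0.857 on day 3, against 7.28 and 8.29 untreated, and Fdps, which makes farnesyl diphosphate, 17.6 and 16.3, against 102 and 107 untreated. Both day 3 arrays lay below both untreated arrays in each. Fdft1, Lss and Cyp51, further along the pathway, fell by 2.22, 2.16 and 2.14, and Srebf2, which encodes SREBP2, by 1.80. Of 18 sterol genes 15 fell and 0 rose (median -1.44), and Dhcr7, Ebp and Tm7sf2 did not pass. Taken from the gamma arm's untreated tumours 13 fell and 0 rose (median -0.75), with Sqle at -0.89, Idi1 at -1.55 and Fdps at -1.35. The motif TCACCCCAC, a sterol regulatory element, was searched on both strands and occurred in 0.551% of all promoters and in 1 of 16 sterol genes with a promoter in the table. That gene was Hmgcs1, the synthase that makes HMG-CoA, which fell by 1.35 and whose window, chr13:119690101-119690400 on the plus strand of GRCm38.p6, is shown with the motif in capitals.
Hmgcs1: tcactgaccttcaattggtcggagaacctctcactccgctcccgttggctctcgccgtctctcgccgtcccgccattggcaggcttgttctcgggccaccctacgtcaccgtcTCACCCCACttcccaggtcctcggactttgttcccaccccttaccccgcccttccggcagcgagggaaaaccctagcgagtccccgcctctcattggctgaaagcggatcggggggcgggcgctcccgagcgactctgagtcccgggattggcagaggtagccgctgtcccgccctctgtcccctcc
The other 15 sterol genes with a promoter in the table did not hold these letters in this window, and Sqle and Fdps were not searched.

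Of 16 fatty acid synthesis genes 12 fell and 0 rose (median -0.85). Fads2, a desaturase, read 0.351 and 0.384 on day 3, against 2.54 and 2.72 untreated, and Elovl6, an elongase, 4.96 and 5.22, against 33.4 and 30.9 untreated. Fasn, fatty acid synthase, fell by 1.79 and Scd2, a stearoyl desaturase, by 1.11. With untreated tumours of the gamma arm as baseline 8 genes of this list rose and 6 fell (median 0.06), while Fads2 was lower by 1.88, Elovl6 by 1.84 and Fasn by 0.95.

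Targets of p53 were still raised on day 3, some of them below their level on day 1. Cdkn1a, the inhibitor of cyclin-dependent kinases, read 38.1 and 43.9 untreated, 87.5 and 96.1 at 6 h, 104 and 71.4 on day 1, and 101 and 76.4 on day 3. The irradiated arrays overlapped among the times and lay above the untreated ones (day 3 log2 1.10, SE 0.19, adjusted p = 3.16e-06). Ccng1, cyclin G1, read 12.2 and 13.9 untreated, 64.3 and 51.9 at 6 h, 41.3 and 44.2 on day 1, and 25.2 and 22.8 on day 3. Mdm2, which degrades p53, read 4.58 and 5.09 on day 3, against 3.34 and 3.70 untreated, and did not pass (log2 0.46, adjusted p = 0.0603). Over the gamma arm's untreated tumours it was higher by 1.42 (adjusted p = 5.02e-08). Of 31 genes on the list of targets 17 rose and 0 fell (median 0.42), led by Dcxr (1.90), Ptprv (1.80), Celf5 (1.31) and Ephx1 (1.23). Celf5 was dim, at 0.55 and 0.58 on day 3, against 0.23 and 0.22 untreated, all below the array median. Whether p53 acts on the listed genes in this tumour was not tested. From the gamma arm's untreated tumours 24 rose and 1 fell (median 0.66).

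Genes of low oxygen and sugar breakdown fell. Of 23 hypoxia and glycolysis genes 18 fell and 0 rose (median -0.65), and 13 fell and 2 rose against the gamma arm (median -0.57). Egln3, a prolyl hydroxylase that HIF induces, read 5.11 and 5.47 on day 3, against 15.9 and 16.6 untreated. Slc16a3, which exports lactate, fell by 1.27, Aldoc, an aldolase, by 1.40 and Pfkl, phosphofructokinase, by 1.16, whereas Vegfa changed by 0.07 and did not pass. Of 22 genes of the unfolded protein response and heat shock 17 fell and 3 rose (median -0.51). Hspd1, a mitochondrial chaperone, fell by 0.99 and Hspb1 by 0.85, and Atf3 and Ddit3, stress factors of the integrated stress response, rose by 1.39 and 0.87. The gamma arm's baseline left 12 lower and 3 higher. Of 19 NRF2 targets 6 fell and 1 rose (median -0.08), with Nqo1 at -0.94, of which Gsr lost its call without untreated replicate 2, and of 38 cytoplasmic ribosomal proteins 5 fell and 0 rose, none at least 2-fold (median -0.03), and 4 of the 5 lost the call when 1 array was left out, Rpl26 with any of the 4.

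Smooth muscle actin and its companions fell. Acta2, the actin of myofibroblasts, read 30.2 and 28.5 on day 3, against 175 and 199 untreated, 0.157 times the untreated level (log2 -2.67, SE 0.11, adjusted p = 6.29e-27). Actg2, the enteric smooth muscle actin, read 9.06 and 8.02 on day 3, against 54.2 and 49.9 untreated, and Tagln, which binds actin, 8.54 and 7.98, against 33.3 and 32.7 untreated. The groups did not overlap in any of the 3. Pkp2, a desmosome protein, read 1.17 and 1.20 on day 3, against 10.3 and 11.1 untreated. Compared with the gamma arm's untreated tumours Acta2 was lower by 2.42, Actg2 by 2.35, Tagln by 2.45 and Pkp2 by 2.82. Of 21 fibroblast and mesenchymal markers 10 fell and 1 rose (median -0.14). Ccn2, a matrix protein that TGF-beta and YAP induce, fell by 1.27, Fgf7, keratinocyte growth factor, rose by 1.33, and Vim and Sparc did not pass.

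Of 18 collagens 9 fell and 0 rose (median -0.34), with Col7a1 at -1.38 and Col5a3 at -1.27, and against the gamma arm 5 fell and 4 rose. Of 9 small leucine-rich proteoglycans 4 rose and 3 fell (median -0.06). Dcn, decorin, read 136 and 90.5 on day 3, against 34.7 and 33.3 untreated, Lum rose by 1.59 and Prelp by 1.49, and Aspn fell by 0.85. Of 11 matrix metalloproteinases and inhibitors 7 rose and 2 fell (median 0.58). Mmp3, stromelysin, read 139 and 134 on day 3, against 38.5 and 39.2 untreated, Mmp10 rose by 1.08 and Mmp11 fell by 0.94. With untreated tumours of the gamma arm 5 of the metalloproteinase list rose and 3 fell. Of 19 endothelial genes 11 rose and 0 fell (median 0.31), with Mmrn2 at 1.38, Plvap at 0.96, Vwf at 0.81 and Kdr, the VEGF receptor, at 0.63, and over the gamma arm 10 rose and 3 fell. Of 19 keratinocyte genes 1 rose and 4 fell, with Krt14 at -1.81, and both counts lay below the shares of all genes (19.3% higher and 28.1% lower). Of the 4, Sprr1b lost its call without untreated replicate 1 or day 3 replicate 1.

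Tissue of the leg moved with the groups as well. Of 23 skeletal muscle genes tested 12 rose and 4 fell (median 0.38). The summed intensity of the 25 muscle genes with a probe was 847 and 703 on day 3, against 602 and 617 untreated. Mybpc2, of fast fibres, rose by 1.09 and Tcap, titin-cap, by 1.26, whereas Tnnc1 and Tnni1, of slow fibres, fell by 1.75 and 1.15. Over the gamma arm's untreated tumours 4 muscle genes rose and 8 fell, Tnnc1 being higher by 1.36. Of 7 fat cell genes 4 rose and 2 fell, with Adipoq, adiponectin, at 0.915 and 0.882 on day 3, against 0.152 and 0.173 untreated. Pparg rose by 1.03 and Car3 fell by 0.61. Adipoq was lower than in the gamma arm's untreated tumours (adjusted p = 1.6e-10), where 2 fat cell genes rose and 4 fell. Of 2 red blood cell genes 1 passed, Alas2 at 0.50. Their part in the other results was not tested.

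Earlier times within the carbon arm were read against the same untreated arrays. At 6 h 3207 of 13459 genes were higher (23.8%) and 1639 lower (12.2%), and on day 1 1225 of 13462 were higher (9.1%) and 941 lower (6.99%). Without untreated replicate 1 or 2 the count lower at 6 h was 1141 or 1023 and that lower on day 1 was 547 or 572. All comparisons with untreated tumours in this arm share those 2 arrays, so they are given side by side only. The largest changes at 6 h were rises of Retnlg (4.84), S100a9 (4.59), Cxcl2 (4.49), S100a8 (4.46) and Celf5 (3.91) and falls of Tnnc1 (-2.22), Tnni1 (-2.14), Kif23 (-2.11), Ung (-2.0) and Bub1b (-1.98). On day 1 they were rises of Adipoq (4.72), S100a9 (4.37), S100a8 (4.31), Saa3 (4.21) and Retnlg (4.19) and falls of Tnnc1 (-2.97), Tnni1 (-2.84), Myl2 (-2.42), Ambp (-1.88) and Csrp3 (-1.62). The muscle genes among these falls went against their list. The median of the 23 skeletal muscle genes tested was 0.15 at 6 h and 1.20 on day 1, and 16 were lower and 4 higher on day 3 than on day 1.

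Between day 3 and day 1 directly, 1996 of 13464 genes were higher on day 3 (14.8%) and 3385 lower (25.1%). Interferon and lymphocyte genes made the step in this interval. Gbp8 was higher on day 3 by 5.33, Calhm6 by 4.80, Cxcl11 by 4.62, Iigp1 by 4.10 and Cxcl9 by 4.09. All 13 GTPases, all 17 cytotoxic and NK genes, all 13 genes of MHC class I, 13 of 15 T cell genes and 25 of 27 antiviral genes were higher on day 3 than on day 1. Their list medians had stood between -0.14 and 0.13 on day 1. The largest falls were Pkp2 (-2.85), Kif20a (-2.50), Acta2 (-2.49), Actg2 (-2.34) and Cdc20 (-2.28). Mitosis genes had fallen at 6 h (median -0.75) and stood at a median of -0.01 on day 1, and 40 of 41 were lower on day 3 than on day 1. Replication genes went the same way for 32 of 36, with medians of -0.38, -0.52 and -1.33 at 6 h, day 1 and day 3, and sterol genes for 13 of 18, with medians of -0.40, -0.78 and -1.44. Neutrophil genes were lower on day 3 than on day 1 in 7 of 12 cases and higher in 1, and p53 targets lower in 12 of 31 and higher in 2.

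**Figure D3:**
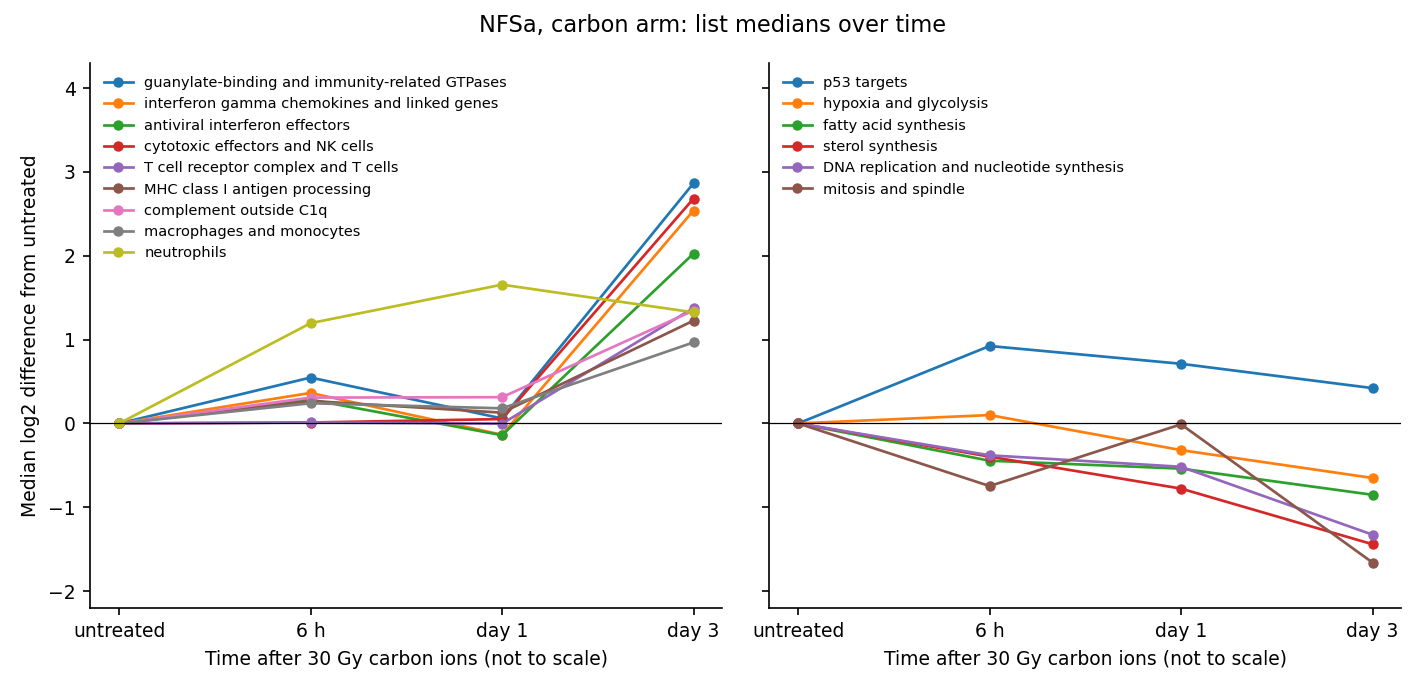
Median log2 difference from untreated (vertical) of 15 gene lists in NFSa tumours of the carbon arm, set to 0 when untreated and followed at 6 h, day 1 and day 3. The interferon, lymphocyte and antigen presentation lists lie between 0.01 and 0.55 at 6 h, between -0.14 and 0.13 on day 1 and between 1.23 and 2.87 on day 3, and the mitosis list passes from -0.75 at 6 h through -0.01 on day 1 to -1.66 on day 3.

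On day 3 the response of NFSa was set against that of the other 3 tumours by a test of the difference. It was larger (more positive) in 1241 of 13415 genes (9.25%) and smaller in 1636 (12.2%). Gbp8 rose by 7.22 in NFSa, against 3.28 in NR-S1, 1.46 in SCCVII and 1.01 in #8520, an excess of 5.30 over their mean (SE 0.14, adjusted p = 1.25e-35). The largest excesses after it were Cxcl9 (3.93), Cyp2f2 (3.46), Calhm6 (3.25) and Iigp1 (3.05). Cyp2f2, a cytochrome P450, read 7.58 and 9.12 on day 3 in NFSa, against 0.428 and 0.443 untreated. Its day 3 difference of 4.25 in NFSa stood beside 2.75 in #8520, 1.26 in SCCVII and -1.63 in NR-S1, and beside 3.35 in NFSa after 30 Gy of gamma rays. All 13 GTPases, 15 of 17 cytotoxic genes and 8 of 11 interferon gamma chemokines and linked genes had a larger response in NFSa than the mean of the others. NR-S1 stood close to NFSa in the cytotoxic list, whose median was 2.68 in NFSa, 2.57 in NR-S1, 0.71 in SCCVII and 1.09 in #8520. The level reached on day 3 lay within the range of the other tumours for Gbp8 and below it for Cxcl9. Gbp8 on day 3 read 31.5 and 26.9 in NFSa, against 47.6 and 46.4 in NR-S1, 33.0 and 32.3 in SCCVII and 25.6 and 24.0 in #8520. The untreated levels were 0.211 and 0.180 in NFSa, against 4.67 and 5.02, 11.2 and 12.5, and 12.5 and 12.1 in the same order. Cxcl9 likewise read 54.6 and 45.8 on day 3 in NFSa and 62.5 to 71.5 in the others, and 1.95 and 2.11 untreated in NFSa, against 31.7 to 57.9 in the others.

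Other gene groups differed from the mean of the other tumours in both directions. Of 27 antiviral genes 10 had a larger and 1 a smaller response than the mean of the other tumours, and the list's median of 2.03 stood beside 1.45 in NR-S1, 1.79 in SCCVII and 1.25 in #8520. Of 21 nucleic acid sensors and interferon regulators 9 had a larger and 1 a smaller response, of 13 MHC class I genes 9 and 0, and of 15 T cell genes 6 and 1. The T cell list's median of 1.38 stood below the 1.66 of NR-S1 and above 0.07 in SCCVII and 0.58 in #8520. Mx1 had a difference of 0.38 that did not pass (adjusted p = 0.0718). Macrophage genes had a larger response in 4 of 25 and a smaller one in 7, with a median of 0.97 beside 2.45 in NR-S1. Mitosis genes fell further in NFSa than in the mean of the others in 32 of 41, with a median of -1.66 beside -1.26 in NR-S1, -0.40 in SCCVII and -1.58 in #8520. Sterol genes fell further in 4 of 18 and less in 1. Acta2 fell by 2.67 in NFSa, against 0.55 in NR-S1, 0.31 in SCCVII and 2.37 in #8520. Collagens had a smaller response in 12 of 18 and a larger one in 1. The genes furthest on the negative side were Crct1 (-3.14), Sprr1a (-3.10), Slc9b2 (-2.94), Sprr3 (-2.73) and Sprr2f (-2.62). Crct1, Sprr3 and Sprr2f, genes of cornifying keratinocytes, differed by 7.93 to 8.53 in NR-S1 on day 3 and read at most 0.427 on every NFSa array. For Apoe 1 day 3 array of NR-S1 had no value, and its excess of 1.76 rests on the other. Over the 17 genes of lipid-laden macrophages and apolipoproteins 5 had a larger and 7 a smaller response in NFSa.

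Against #8520 alone, the other fibrosarcoma, the response of NFSa was larger in 1296 of 13458 genes (9.63%) and smaller in 996 (7.4%). Gbp8 (6.21), Cxcl9 (4.46), Calhm6 (4.08), Iigp1 (3.85) and Gbp4 (3.63) had the largest excess, and all 13 GTPases and 16 of 17 cytotoxic genes had the larger response in NFSa. Ptn (-3.63), Ccn2 (-3.57), Sct (-3.32), Sned1 (-3.12) and Inmt (-3.06) stood at the other end. The day 3 difference of Ccn2 was -1.27 in NFSa, against 2.30 in #8520, and that of Ptn, pleiotrophin, -1.58, against 2.05. Of 41 mitosis genes 1 differed between the fibrosarcomas in this test, and of 36 replication genes 1. Of 18 sterol genes 7 fell less in NFSa and 0 fell further.

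**Figure D4:**
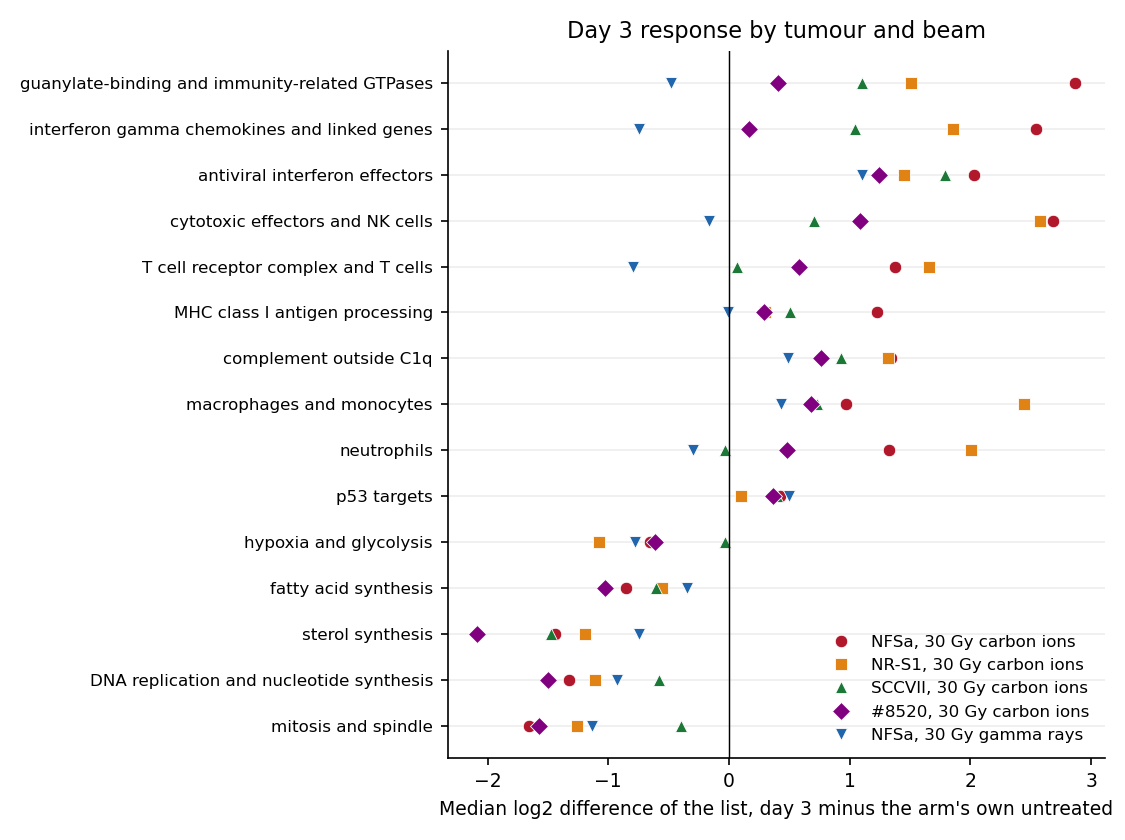
Median log2 difference of 15 gene lists (horizontal) on day 3 minus the arm's own untreated tumours, for NFSa after carbon ions (red circles), the other 3 tumours after carbon ions and NFSa after 30 Gy of gamma rays (blue triangles). The GTPase list stands at 2.87 in NFSa after carbon ions, 0.40 to 1.51 in the other tumours and -0.48 in NFSa after gamma rays, whose untreated tumours already had high levels.

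Carbon ions and gamma rays were compared at 30 Gy on day 3, each against its own untreated tumours. The carbon-ion response was larger in 1247 of 13460 genes (9.26%) and smaller in 1680 (12.5%). Gbp8 (10.02), Cxcl9 (6.27), Calhm6 (6.18), Acod1 (5.69) and Ubd (5.49) led. These differences carry the gap between the untreated tumours, which for Gbp8 was -7.89. The day 3 levels themselves were 31.5 and 26.9 after carbon ions, against 6.87 and 6.40 after 30 Gy and 8.49 and 8.11 after 50 Gy of gamma rays. For Cxcl9 they were 54.6 and 45.8, against 23.8 and 21.0 and 28.2 and 25.8. The 30 Gy gamma tumours of day 3 were lower in Gbp8 than their own untreated tumours, by 2.80. Gbp8 did not hold 1 level in the gamma arm before that, with 47.6 and 44.8 untreated, 29.9 and 33.1 at 6 h and 0.358 and 0.297 on day 1 after 30 Gy, and 0.280 and 0.255 at 6 h after 50 Gy. The labels number the day 1 gamma arrays as replicates 3 and 4 and the other gamma arrays of NFSa as 1 and 2. Tnnc1 (-2.82), Hnrnpr (-1.70), Tnnt1 (-1.69), Cd209f (-1.64) and Tnni1 (-1.64) stood at the negative end, and Hnrnpr lost its call without any 1 of the 4 carbon-arm arrays, untreated or of day 3 (adjusted p 0.0802 to 0.113). Over the 23 skeletal muscle genes 16 had a larger response after carbon ions and 3 a smaller one, and 17 were lower in the carbon arm's untreated tumours.

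Antiviral, mitosis and sterol genes moved the same way after both beams. Mx1 read 17.8 and 17.8 on day 3 after carbon ions, against 23.5 and 19.4 after 30 Gy of gamma rays, and Irf7 218 and 177, against 206 and 187, which overlap. The antiviral list's median was 2.03 after carbon ions and 1.10 after gamma rays, the mitosis median -1.66 and -1.13, and the sterol median -1.44 and -0.74. By the test of the difference 19 of 27 antiviral genes had a larger response after carbon ions and 0 a smaller one, and 20 of 27 were lower in the untreated tumours of the carbon arm than in those of the gamma arm. By the same test 32 of 41 mitosis genes, 15 of 36 replication genes and 12 of 18 sterol genes fell further after carbon ions and 0 fell less. For mitosis 35 of 41 genes, and for sterol synthesis 15 of 18, were higher in the untreated tumours of the carbon arm. Acta2 on day 3 read 30.2 and 28.5 after carbon ions, against 56.6 and 52.6 after 30 Gy and 55.0 and 54.0 after 50 Gy of gamma rays, and its untreated levels were 175 and 199 in the carbon arm, against 169 and 147 in the gamma arm. Its fall was deeper after carbon ions by 1.14 (adjusted p = 9.75e-08). Apoe read 81.5 and 63.0 after carbon ions, against 35.5 and 36.2 after 30 Gy of gamma rays, a response larger by 1.95 (adjusted p = 3.5e-09). Of 31 p53 targets 3 had a larger and 8 a smaller response after carbon ions, and Cdkn1a did not pass (-0.55, adjusted p = 0.147).

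**Figure D5:**
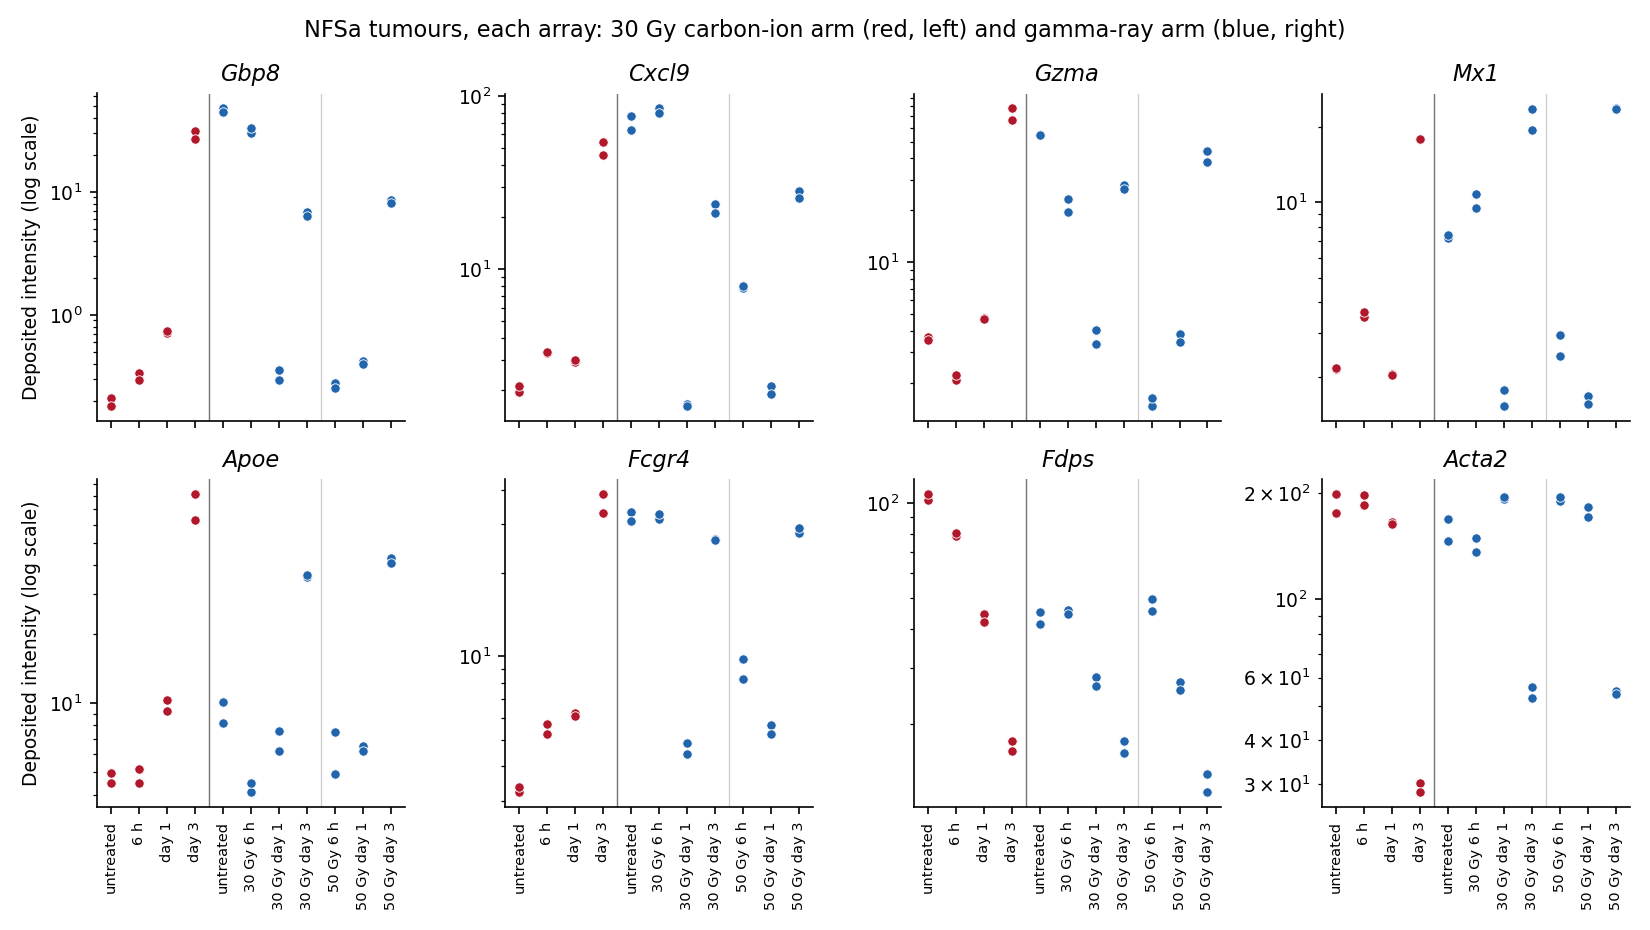
Deposited intensity on log scales (vertical, a scale for each gene) on each of the 22 NFSa arrays for 8 genes, with the carbon arm (red) left of the gamma arm (blue). Gbp8 and Cxcl9 are high on day 3 after carbon ions and also in the untreated tumours of the gamma arm and at 6 h after 30 Gy of gamma rays, whereas Apoe is highest and Acta2 lowest on day 3 after carbon ions among all 22 arrays.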

How the data were processed

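Total RNA of transplanted mouse tumours was labelled with Cy5 and hybridised to 1-colour CodeLink arrays, 1 sample an array, per the labels' protocols. The deposited intensity values are linear and stood near a median of 1 on each array. How the authors scanned, corrected background and scaled the arrays is not given in the sources used here. Of all deposited values 0.751% were missing and 0.149% were not above 0, which were set to missing before log2 was taken. No further normalization was applied, so a global shift in RNA content would not be seen. Of 36227 probes 21615 had 1 gene symbol, 681 several and 13931 none in the platform annotation, and 21487 were matched by Entrez identifier. Each of 18069 genes was read from 1 probe, that with the highest mean over the 88 arrays (3002 genes had several probes), and 13465 genes remained once the dimmest 25% (by mean log2) and those present on under 80% of arrays were left out.

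A linear model with a mean for each of 44 groups of 2 arrays was fitted with limma 3.58.1 in R 4.3.3 (data.table package, version 1.17.8). Contrasts were tested with eBayes without an intensity trend, p-values were adjusted over all genes tested by Benjamini-Hochberg, and a gene passed at an adjusted p under 0.05. All 88 arrays gave the spread, so a group of 2 borrowed its error from the others, and the small number of arrays limits the precision. That spread was uneven. Between the 2 arrays of a group, the SD of log2 differences was 0.19 to 0.24 in #8520 and SCCVII on days 1 and 3 after 50 Gy of gamma rays. It was 0.43 in NFSa on day 3 after carbon ions and 0.73 at 6 h. Those #8520 and SCCVII arrays had 5th percentiles of 0.36 to 0.45, against 0.061 and 0.065 in NFSa on day 3. With only the 22 NFSa arrays, 3379 genes were higher and 1695 lower at 6 h. Data were also made with 13461 genes, of which 67, 67 and 66 were changed by 1.25, 1.5 and 2-fold. The fit recovered 31.3%, 74.6% and 95.5% of these changes, with 7 false among 141 calls. Far more genes (6387) passed on day 3 in the measured data, so these rates need not carry over to them. The groups, the 37 gene lists (821 genes, 715 with a probe, no gene in more than 1 list) and the tests were chosen with earlier results of these data known.

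Named genes were, among genes that pass, do not overlap between groups and exceed 2 times the array median in the higher group, the 15 largest rises and 10 largest falls, passing over predicted genes. Added were up to 4 members of each list with the largest differences, the 5 largest each way of each other comparison, and Cdkn1a, Mdm2, Ccng1 and Plk1. List members named beyond these, such as Cd4, Cd8b1, Lyz2, Cd14, Vegfa, Vim, Lss and Hmgcs1, were chosen after their values were seen. Alternatives were quantile normalization, centring on the median, a floor, an offset of 0.25, other filters on dim genes, the mean of all probes, only the 4 compared or the 22 NFSa arrays, an intensity trend, untreated tumours of both arms or of the gamma arm, a replicate block, each of the 4 arrays of day 3 and untreated tumours of the carbon arm left out in turn, and a 1.5-fold limit. Replicate numbers of different groups did not pair: over 6 pairs of groups the correlation of the differences between replicates ran from -0.12 to 0.18. Promoter sequences are RefSeq's, build GRCm38.p6, and motifs were searched as letters.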

Additional observations from a re-analysis of the deposited data

Results flagged for a closer look

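With 2 arrays in a group no single array could be tested against its group. Of 29 named genes checked, 17 had a day 3 response to carbon ions in NFSa that differed more than 2-fold from the mean response of NR-S1, SCCVII and #8520, by limma's test against a 2-fold limit. The 29 were the 15 largest rises and 10 largest falls on day 3 in NFSa, with Cdkn1a, Mdm2, Ccng1 and Plk1. That choice used the same day 3 difference, so the count does not measure how far NFSa differs. The share of all genes past this limit was not counted. By the test without the limit, 209 of 13415 genes passed higher and 204 lower by at least 2-fold. On the log2 scale the excess in NFSa was 5.30 for Gbp8, 3.93 for Cxcl9, 3.46 for Cyp2f2, 3.25 for Calhm6, 3.05 for Iigp1, 2.60 for Gbp4 and 2.31 for Cxcl11. It was 2.26 for Gzmb, 2.25 for Saa3, 2.04 for Acod1, 1.78 for Gzma, 1.76 for Apoe, 1.64 for Apoc2 and 1.62 for Cfb. The response was more negative in NFSa by -2.25 for Actg2, -2.0 for Pkp2 and -1.59 for Acta2. For Apoe 1 day 3 array of NR-S1 had no value. Apoe and Apoc2 did not stand for their list of 17 genes, of which 5 had a larger and 7 a smaller response in NFSa. That list's median was 0.59 in NFSa, 1.64 in NR-S1, 0.78 in SCCVII and 0.86 in #8520.

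In the same test 15 of the 29 genes had a response to 30 Gy of carbon ions in NFSa that differed from the response to 30 Gy of gamma rays. This count too follows in part from how the genes were chosen. By the test without the limit, 490 of 13460 genes passed higher and 125 lower by at least 2-fold. The difference was 10.02 for Gbp8, 6.27 for Cxcl9, 6.18 for Calhm6, 5.69 for Acod1, 5.32 for Gzma, 5.03 for Gbp4, 4.84 for Saa3 and 4.64 for Iigp1. It was 4.26 for Klrk1, 4.04 for Cxcl11, 3.93 for Gzmb, 3.51 for Cfb, 3.29 for Apoc2, 1.95 for Apoe and -1.60 for Sqle. Each of these holds the difference between the untreated tumours of the arms, which was -7.89 for Gbp8, -5.11 for Cxcl9, -4.95 for Calhm6 and -4.46 for Acod1. Beam and arm cannot be told apart in these values.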

How the results depend on the processing

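Counts of genes that pass kept within 1.5 times of their values under most alternatives. With the lowest 50% of genes by mean log2 value left out, fewer genes were tested. Then 1693 genes were higher on day 3, 910 lower at 6 h, 793 higher on day 1, and 1284 higher on day 3 than on day 1. Against the other 3 tumours 756 were higher, against #8520 606 lower, against gamma rays 762 higher, and 1487 were lower in the untreated tumours of the carbon arm than in those of the gamma arm. With a limit of 1.5-fold the counts higher and lower were 1362 and 1488 on day 3, 1006 and 448 at 6 h, 572 and 236 on day 1, and 1027 and 1105 for day 3 over day 1. With the same limit they were 585 and 748 against the other 3 tumours and 852 and 655 against #8520, 835 were lower after carbon ions than after gamma rays, and 1576 higher and 1122 lower between the untreated arms. Quantile normalization gave 1948 genes higher at 6 h, and the cause was not tested. It moved the share of day 3 calls that were higher to 45.2%, against 40.68% without it.

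Arrays left out in turn were the 2 of day 3 and the 2 untreated ones of NFSa in the carbon arm, where a comparison uses them, and no array of 6 h, day 1, the gamma arm or another tumour was left out. This gave 2102 to 2293 genes higher and 2933 to 3244 lower on day 3, 2350 to 2365 higher and 1023 to 1141 lower at 6 h, and 837 to 955 higher and 547 to 572 lower on day 1. Day 3 against day 1 gave 1601 to 1718 higher and 2416 to 2819 lower. The other 3 tumours gave 850 to 1054 and 1219 to 1382, #8520 gave 996 to 1194 and 765 to 839, gamma rays gave 1069 to 1141 and 1243 to 1459, and the untreated arms gave 3137 to 3154 and 2139 to 2192. The replicate block gave 2621 genes higher and 3798 lower on day 3, and a crossed pairing added after seeing the data 2617 and 3806. Neither moved a count by over 1.5 times, whereas leaving out an untreated array did so for genes lower at 6 h (1639 with all arrays) and on day 1 (941).

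Of 224 gene results under alternatives, 3507 of 3597 values kept direction and side of the threshold. The 27 that changed sign arose with other untreated tumours. With those of the gamma arm the day 3 difference was -0.69 for Acod1, -1.30 for Adipoq, 0.0035 for Aspn, -0.38 for Ccl3, -0.29 for Ccl5, -0.33 for Cd274, -0.0854 for Cd79b, -0.37 for Cidec, -0.52 for Cxcl3, -0.48 for Cxcl9, -0.48 for Gbp4, -0.67 for Gbp8 and 0.25 for Gclc. It was 0.60 for Gsr, -0.67 for H2-Ab1, -0.12 for H2-DMa, -0.18 for Icos, -0.13 for Il1b, -0.65 for Pdcd1, -0.0695 for Psmb9, -0.35 for Ptx3, 0.33 for Rps7, -0.50 for Saa3, 0.28 for Scd2, -0.0527 for Tcap and 1.36 for Tnnc1. With untreated tumours of both arms Gsr stood at 0.0309. Another 57 values lost their call and 6 gained one. Dim genes near background limit the size of the largest folds, and 2 arrays a group limit every call.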
